A study of Danio rerio with 6 samples.

Results

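The 10 genes described here encode the proteins that modify, fold, trim and crosslink fibrillar collagen. They are p4ha1b, p4ha2, plod1a, plod2, p3h1, crtap, fkbp10b, serpinh1b, bmp1a and lox. The list was fixed with earlier results of these data known. Its members were matched by symbol to Ensembl rows of the deposited count tables, where they are 10 of 34289 genes. All 10 were matched and all 10 passed the low-count filter, with at least 118 reads in every library. The row matched to lox is the one that the symbol table calls LOX. RefSeq names the gene at that place loxa, with lox as a synonym, and has another gene called lox on chromosome 8 that is not analysed here.

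RNA was sequenced from osteoblasts, the bone-forming cells, of regenerating zebrafish scales. All fish carried both osx:H2A-mCherry, which marks nuclei of cells that use osterix (sp7) regulatory sequence, and osx:Venus-hGeminin, a geminin-based reporter under the same sequence that accumulates in cycling cells from S phase on. About 50 scales in 3 rows were plucked per side, the regenerating scales were taken on day 4, and 3 to 5 fish were pooled for each sample. All samples were digested with Liberase for 1 h. Live mCherry-positive single cells were sorted by Venus-hGeminin, and 3 libraries were made from cells without the reporter (Geminin-negative) and 3 from cells with it (Geminin-positive), called the negative and the positive gate in what follows. Neither the age nor the strain of the fish is given in the sources used here. The labels describe Geminin-positive cells as high in Erk activity, but the series' design text gives the opposite relation between reporter and Erk. The groups are therefore called by their gate, and nothing is said of Erk.

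Collagen chains are modified in the endoplasmic reticulum before and while they wind into a triple helix. Prolyl 4-hydroxylases add the hydroxyl groups that stabilise the helix, lysyl hydroxylases prepare lysines for glycosylation and crosslinking, and a prolyl 3-hydroxylase complex modifies a small number of prolines. Chaperones hold the chains until they are exported, a protease then removes the C-terminal propeptide, and lysyl oxidases start the crosslinks between molecules. In humans, loss of several of these genes, among them CRTAP, P3H1, FKBP10, SERPINH1 and BMP1, causes brittle bone disease. Scales are plates of dermal bone, so their osteoblasts lay down type I collagen in large amounts.

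Total counts per library ranged from 15854710 to 34472612. The geminin gene gmnn, which checks the sort, rose from 398 ± 30.4 to 1556 ± 66.7 CPM (SD, n = 3 each; adjusted p = 0.01057 by edgeR). CPM is the read count per 1000000 reads of the TMM-scaled library size. The osteoblast gene sp7 had 112 ± 34.8 and 200.3 ± 63.3 CPM in the negative and the positive gate (adjusted p = 0.4642 by edgeR). The summed level of 12 osteoblast markers ranged from 39398 to 110873 CPM in the negative gate and from 64127 to 92109 CPM in the positive gate, while its member bglap was near 0 in all of them. Its largest members went opposite ways, so the sum hides a split. The mean of col10a1a was 56412 and 36083 CPM in the negative and the positive gate, with overlap. That of col10a1b was 5354 and 33907 CPM, without overlap (log2 fold change 2.66, adjusted p = 0.1028 by edgeR). Of the 11 markers tested, 4 had a positive log2 fold change and 7 a negative one. The summed markers of leukocytes and osteoclasts were lower in the positive gate without overlap. Those of fibroblasts, given at the end, were higher, a difference carried by lum, and without lum they were lower. The 13 leukocyte markers summed to between 2439 and 3289 CPM in the negative gate and between 69.4 and 217 CPM in the positive gate, with coro1a at 0 in all of the latter. The 7 osteoclast markers summed to 598 to 727 and to 98.8 to 129 CPM. The 11 keratinocyte markers summed to 833 to 4192 and to 746 to 941 CPM, and the ranges overlapped. In bulk samples, fewer cells of a type and less RNA per cell cannot be told apart.

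Of the 10 genes, 9 had a higher level in the positive gate, beside 49.6% of all genes, and fkbp10b and lox differed most, by about 2.6-fold. None of the 10 passed the edgeR quasi-likelihood test after Benjamini-Hochberg adjustment over 12855 genes, of which 0.607% passed, 0.124% higher and 0.482% lower in the positive gate. At an unadjusted p under 0.05 there were 4 of the 10 (p3h1, crtap, fkbp10b and lox), all higher in the positive gate, beside 3.64% of all genes in that direction, 5.76% in the other and 9.4% in either. With DESeq2 3 of the 10 passed after adjustment (p3h1, fkbp10b and lox, all higher), beside 1.51% of all genes called higher by DESeq2, and with limma-voom 0 did, beside 0.327% called higher. The groups did not overlap for the same 4 genes, all higher in the Geminin-positive group, whereas 8.09% of all genes were higher without overlap. Of the 10, 7 had at least 100 CPM in every library, and these shares over all genes were not taken at like levels. With a stricter filter, at least 10 CPM in 3 libraries, 396 of 6324 genes were higher at an unadjusted edgeR p under 0.05, and 4 of the 9 members kept. The median log2 fold change of the 10 was 0.65, against -0.01 over all genes tested. Scaling by library size alone moved the median gene to -0.47 and the median of the 10 to 0.17, and with it 6 of the 10 were higher. Relative to the median gene the 10 lay 0.66 higher with TMM and 0.65 higher with library size alone.

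**Figure D1:**
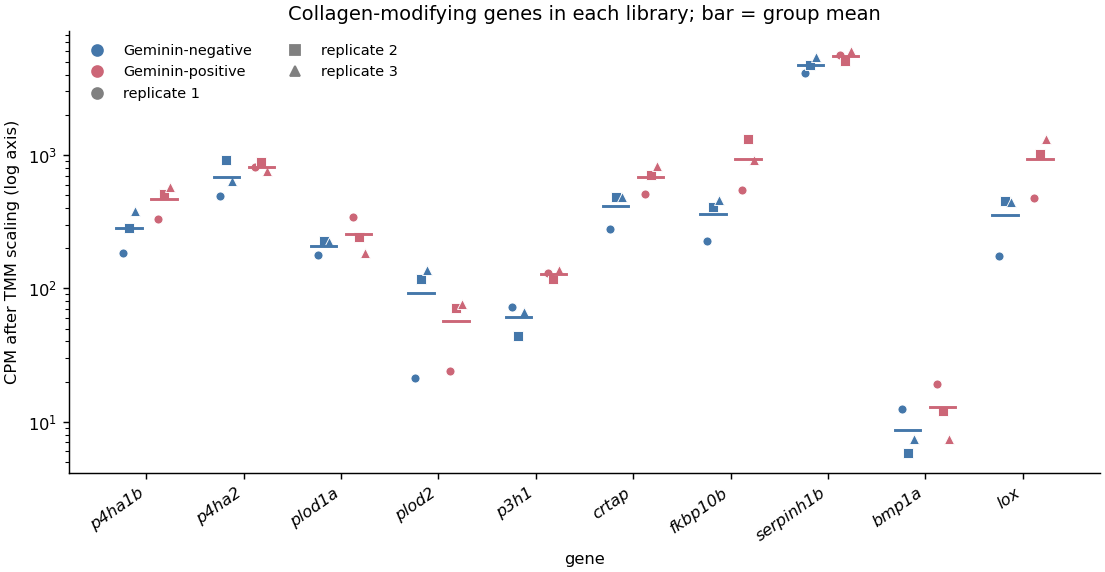
Level of each of the 10 genes in each library, in CPM after TMM scaling on a log axis; points are libraries, with shapes for the replicate number, and bars are group means. The 2 groups are apart for p3h1, crtap, fkbp10b and lox, and serpinh1b lies far above the rest in all 6 libraries.

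The genes of prolyl 4-hydroxylation are the alpha subunits p4ha1b (ENSDARG00000071082, danRer10 chromosome 17, 20127567 to 20147370) and p4ha2 (ENSDARG00000010085, chromosome 21, 43102645 to 43136621). The gene p4ha1b had 183, 285 and 379 CPM in Geminin-negative replicates 1 to 3 and 330.1, 506 and 576 CPM in the positive ones. The groups overlapped through the highest Geminin-negative and the lowest Geminin-positive library. Its fold change was 1.67 (log2 fold change 0.74, SE 0.33, adjusted p = 0.5635 by edgeR). The other subunit gene, p4ha2, had 489.5, 923 and 638 CPM against 810.4, 887 and 754 CPM. Its highest and its lowest library were both Geminin-negative. The fold change of p4ha2 was 1.20, with a 95% interval of 0.779 to 1.84 (adjusted p = 0.9999 by edgeR). The active enzyme pairs these subunits with the beta subunit p4hb, a protein disulfide isomerase that also serves other proteins. The level of p4hb was 1628 ± 849.5 CPM in the negative gate and 1454 ± 382 CPM in the positive gate (adjusted p = 0.9999 by edgeR). Per kilobase of exon, the ratio of p4ha1b to p4hb within a library was 0.283, 0.217 and 0.186 in the negative gate and 0.394 ± 0.00562 (SD, n = 3) in the positive gate. The ratio was higher in every Geminin-positive library. For p4ha1b over p4ha2 the ratio overlapped between the groups, at 0.387 ± 0.136 and 0.528 ± 0.162.

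Lysyl hydroxylation is represented by plod1a (ENSDARG00000059746, chromosome 8, 47861081 to 47906825) and plod2 (ENSDARG00000011821, chromosome 24, 5205922 to 5282920). In mammals the enzyme of PLOD1 acts on lysines of the helix and that of PLOD2 on those of the telopeptides, the short ends where crosslinks form. The gene plod1a had 178, 226 and 222 CPM against 343, 242 and 185 CPM. The Geminin-positive libraries spanned both the highest level and one within the Geminin-negative range. Its fold change was 1.23 with a 95% interval of 0.783 to 1.93 (adjusted p = 0.9999 by edgeR). The gene plod2 was the only one of the 10 with a lower mean in the positive gate, with 21.3, 118 and 137 CPM against 24.2, 70.7 and 76.8 CPM. In both groups replicate 1 was far below the other libraries, and the coefficient of variation was 67.3% and 50.3%, the highest of the 10 in each group. The log2 fold change of plod2 was -0.68 (SE 0.67, adjusted p = 0.9999 by edgeR), and leaving out single libraries gave -1.14 without Geminin-negative replicate 1, -0.30 without replicate 3 of that gate and -0.31 without replicate 1 of the positive gate. The ratio of plod1a to plod2 per kilobase was 10.8, 2.49 and 2.11 in the negative gate and 18.4, 4.44 and 3.13 in the positive gate. It was thus highest in replicate 1 of each group, and the groups overlapped. Ratios per kilobase to plod3, another lysyl hydroxylase gene, overlapped too. For plod1a over plod3 they were 1.47, 1.28 and 1.79 in the negative gate and 1.64, 0.803 and 0.7405 in the positive gate. For plod2 over plod3 they were 0.136, 0.514 and 0.849 against 0.0891, 0.181 and 0.237.

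Prolyl 3-hydroxylation rests on a complex of the enzyme P3h1, the helper protein Crtap and the isomerase cyclophilin B, the product of ppib. The gene p3h1 (ENSDARG00000071212, chromosome 11, 38813659 to 38843299) had 72.7, 44.1 and 66.1 CPM in the negative gate and 131, 117 and 138 CPM in the positive gate. Every Geminin-positive library lay above every Geminin-negative one. The log2 fold change of p3h1 was 1.08 (SE 0.29, unadjusted p = 0.004877 and adjusted p = 0.1793 by edgeR), the smallest p of the 10. Its exons share 199 bases with those of an opposite-strand row, C11H1orf50, which had 2025 counts over all libraries. They share 332 bases with another opposite-strand row, si:ch211-146f2.7, which had 7 counts. Since the strand setting is not given in the sources used here, reads from those stretches cannot be told apart. The levels of p3h1 per kilobase carry this limit. The gene crtap (ENSDARG00000018010, chromosome 19, 43039695 to 43048286) had 277, 488 and 481 CPM against 513, 707 and 825 CPM. The groups did not overlap, although the lowest Geminin-positive library was close to the highest Geminin-negative one. Its log2 fold change was 0.71 (SE 0.30, unadjusted p = 0.04358 and adjusted p = 0.4984 by edgeR). The third partner, ppib, had 1513 ± 338 and 2677 ± 665 CPM, also without overlap (log2 fold change 0.82, SE 0.28, adjusted p = 0.3222 by edgeR). The ratio of p3h1 to crtap per kilobase was 0.142, 0.0489 and 0.0743 in the negative gate and 0.138, 0.0896 and 0.0903 in the positive gate, so the groups overlapped. In each library the RNA of the enzyme was below that of both partners per kilobase, since its ratio to ppib was between 0.0100 and 0.0274.

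The collagen chaperones are fkbp10b and serpinh1b. The product of fkbp10b is an isomerase of the endoplasmic reticulum, known in mammals for its part in lysyl hydroxylation of telopeptides, and Serpinh1b is Hsp47, a chaperone that binds the collagen triple helix. The gene fkbp10b (ENSDARG00000045129, chromosome 12, 13866983 to 13918734) had 228, 407 and 457 CPM in the negative gate and 550.3, 1320.4 and 913 CPM in the positive gate. The groups did not overlap, but Geminin-positive replicate 1 was much nearer to the Geminin-negative libraries than replicate 2 was. Its exons share 22 bases with those of dbf4b, a row with 173 counts over all libraries. The fold change of fkbp10b was 2.55 (log2 fold change 1.35, SE 0.38, unadjusted p = 0.007085 and adjusted p = 0.2153 by edgeR). The chaperone gene serpinh1b (ENSDARG00000019949, chromosome 15, 29450292 to 29454673) had 4116, 4727 and 5405 CPM against 5582, 5110.3 and 5993 CPM. Its groups overlapped, and with a coefficient of variation of 13.6% and 7.94% it was among the steadiest of the 10. The fold change of serpinh1b was 1.17 with a 95% interval of 0.833 to 1.65 (adjusted p = 0.9999 by edgeR). This gene took 51.2% to 71.5% of all reads of the 10 genes in a library. The ratio of fkbp10b to serpinh1b per kilobase was 0.0896, 0.139 and 0.137 in the negative gate and 0.160, 0.419 and 0.247 in the positive gate, without overlap. That difference between the 2 chaperones does not depend on how libraries are scaled. The ratio of p4ha2 to serpinh1b per kilobase overlapped, at 0.247 ± 0.0760 and 0.254 ± 0.0412.

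Outside the cell, Bmp1 removes the C-terminal propeptide of procollagen, and Lox oxidises lysines to begin crosslinking. In zebrafish, mutation of bmp1a gives the frilly fins phenotype. The gene bmp1a (ENSDARG00000028071, chromosome 8, 51176368 to 51306736) had the lowest level of the 10, with 12.5, 5.85 and 7.42 CPM against 19.1, 12.1 and 7.396 CPM. The groups overlapped. Its fold change was 1.49 with a 95% interval of 0.449 to 4.98 (adjusted p = 0.9999 by edgeR). The copy bmp1b, named outside the rule for named genes as the paralog, had at most 38 reads in a library and 0 in 2 libraries. The gene lox (ENSDARG00000003259, chromosome 10, 7779840 to 7798176) had 175, 451 and 446 CPM in the negative gate and 478, 1018 and 1326 CPM in the positive gate. The groups did not overlap, and the lowest Geminin-positive library was close to the highest Geminin-negative one. The fold change of lox was 2.63 (log2 fold change 1.40, SE 0.46, unadjusted p = 0.01567 and adjusted p = 0.3118 by edgeR). Its relative loxl2b had 392 ± 131 and 787 ± 335 CPM (adjusted p = 0.4178 by edgeR), and the ratio of lox to loxl2b per kilobase overlapped, with 1.13, 2.38 and 1.54 against 2.19, 2.03 and 2.39. The ratio of lox to loxl4, another lysyl oxidase gene, per kilobase was 2.99, 3.50 and 2.76 in the negative gate and 4.13, 16.8 and 14.6 in the positive gate, without overlap, while that of lox to serpinh1b overlapped (0.141 ± 0.0527 and 0.323 ± 0.139).

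Levels were compared between genes per kilobase of exon, as CPM per kilobase. In the Geminin-negative libraries serpinh1b stood highest at 1285 ± 174, followed by p4ha2 at 317 ± 102 and crtap at 277 ± 80.0 (SD, n = 3 each). Then came lox at 185 ± 81.7, fkbp10b at 159 ± 52.8 and p4ha1b at 119 ± 41.2, and each neighbour in this run from p4ha2 to p4ha1b overlapped the next. Below them stood plod1a at 68.3 ± 8.80, apart from both its neighbours, and then plod2 at 23.2 ± 15.6 and p3h1 at 22.0 ± 5.39, which overlapped. The lowest was bmp1a at 2.30 ± 0.935. In the Geminin-positive libraries serpinh1b was again highest at 1504 ± 119. The next places were held by lox at 487 ± 222, crtap at 454 ± 105, fkbp10b at 407 ± 169 and p4ha2 at 379 ± 31.0, and these 4 genes overlapped. Further down p4ha1b (198 ± 53.4), plod1a (84.0 ± 26.2), p3h1 (46.4 ± 3.80), plod2 (14.4 ± 7.26) and bmp1a (3.44 ± 1.57) were each apart from the next. The highest value of p4ha1b, 242.8, narrowly overlapped the lowest of fkbp10b, 241.1. By their means p4ha2 stood above lox and fkbp10b in the negative gate and below both in the positive gate, where all 3 overlapped; in the negative gate p4ha2 overlapped lox but not fkbp10b. The genes p3h1 and plod2 overlapped in the negative gate, and p3h1 was above plod2 in the positive gate.

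The type I collagen genes, the main substrate of these proteins, differed more than any of the 10. The level of col1a1a rose with a log2 fold change of 2.13 (SE 0.35, adjusted p = 0.04627 by edgeR) and that of col1a1b with 2.41 (SE 0.38, adjusted p = 0.03967 by edgeR). The calls of both were lost without any single library other than Geminin-positive replicate 1, with adjusted p up to 0.143 and 0.1133 by edgeR. The third gene, col1a2, had a log2 fold change of 2.15 (SE 0.39, adjusted p = 0.06063 by edgeR). The 3 genes took 7.97%, 10.3% and 6.63% of all counts in the negative gate and 20.5%, 34.6% and 26.9% in the positive gate. The 10 genes together took 0.709%, 0.811% and 1.02% against 0.839%, 0.726% and 0.939%. The share of the collagens was apart between the groups, and the share of the 10 genes overlapped. As a share of the TMM-scaled library size, the 10 genes took 0.575%, 0.767% and 0.824% against 0.878%, 0.999% and 1.08%, and on that scale the groups did not overlap.

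**Figure D2:**
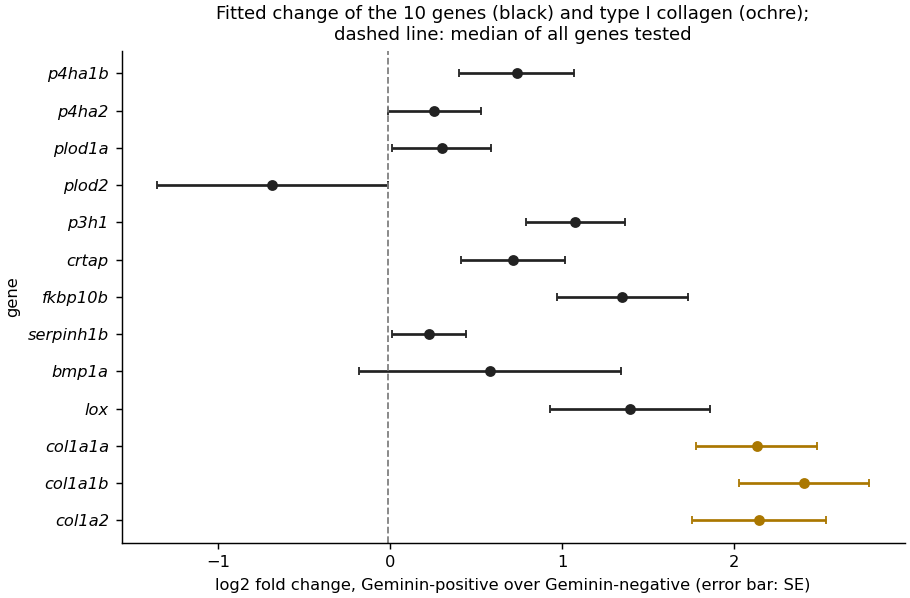
Log2 fold change of the 10 genes (black) and of the type I collagen genes (ochre), Geminin-positive over Geminin-negative, from the edgeR fit of all genes, with SE as the error bar. The dashed line is the median of all genes tested, -0.01; the collagen genes lie at 2.13 to 2.41 and the 10 genes at -0.68 to 1.40.

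For every 1000 reads of type I collagen, the 10 genes had 89.0, 78.7 and 154 reads in the negative gate and 40.9, 21.0 and 34.9 reads in the positive gate. The groups did not overlap. The value of serpinh1b was 63.7, 48.5 and 101 reads against 26.0, 10.7 and 19.4 reads, and that of p4ha2 was 7.57, 9.46 and 11.9 against 3.77, 1.87 and 2.44. For lox the groups overlapped, with 2.71, 4.62 and 8.36 reads against 2.22, 2.14 and 4.28. Of the 10 genes, 7 were lower without overlap in the positive gate, beside 52.7% of all genes tested. An edgeR fit with each library scaled by its type I collagen counts was added after the data were seen. In it, 6 of the 10 were lower after adjustment over all genes (p4ha1b, p4ha2, plod1a, plod2, crtap and serpinh1b), beside 29.5% of all genes. The largest difference was that of plod2 (log2 fold change -3.01, SE 0.72, adjusted p = 0.01335 by edgeR), and serpinh1b had -1.93 (SE 0.48, adjusted p = 0.01524 by edgeR). The genes fkbp10b (-0.97, SE 0.45, adjusted p = 0.1245 by edgeR), lox (-0.86, SE 0.51, adjusted p = 0.2238 by edgeR), p3h1 (-1.11, SE 0.55, adjusted p = 0.1509 by edgeR) and bmp1a (-1.51, SE 1.06, adjusted p = 0.3028 by edgeR) did not pass. The median of the 10 on this scale was -1.52 and that of all genes -2.13, and 95.5% of all genes had a negative value. Negative values here follow from the higher type I collagen counts of the positive gate and are not particular to the 10. By their median the 10 were less negative than all genes.

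**Figure D3:**
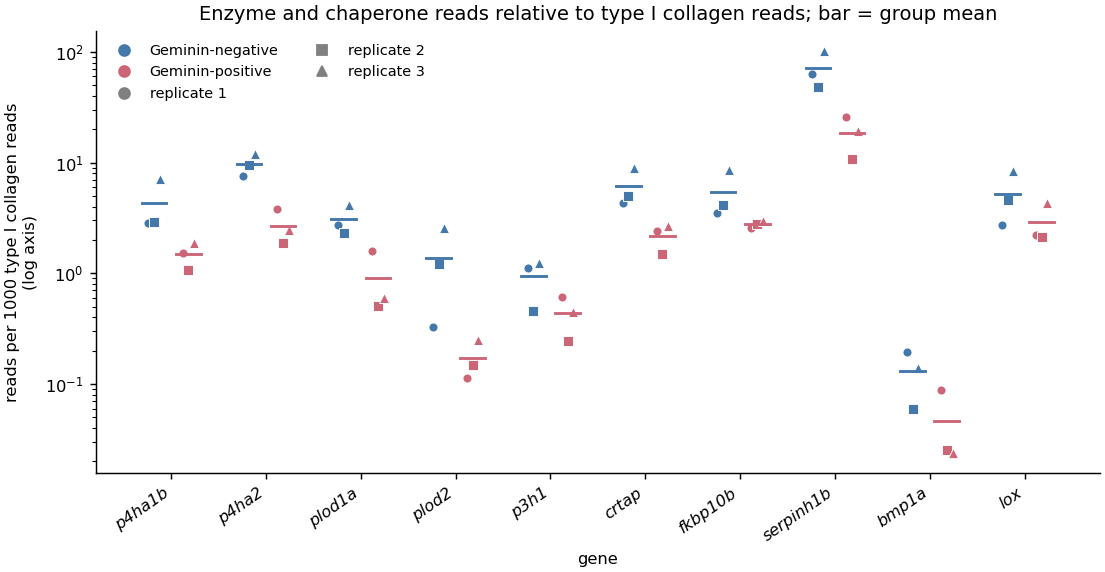
Reads of each of the 10 genes per 1000 reads of col1a1a, col1a1b and col1a2 in the same library, on a log axis; points are libraries and bars are group means. The groups are apart for 7 of the 10 genes and overlap for p3h1, bmp1a and lox.

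The rest of the pathway was read from a list of 37 other modification genes, of which 32 were matched and 27 passed the filter. This list too was chosen with earlier results of these data known. None of the 27 passed after adjustment with edgeR, 12 had an unadjusted p under 0.05, all higher in the positive gate, beside 3.64% of all genes. With DESeq2 5 passed and with limma-voom 1, all higher, beside 1.51% and 0.327% of all genes. Their median log2 fold change was 0.85, and 19 of 27 were positive. Of the 13 with a mean of at least 100 CPM over all 6 libraries, 10 were positive and 7 were higher without overlap. The shares over all genes, 49.6% and 8.09%, were taken without that cut and are not a like background. The cut was met by p3h3 only through the positive gate (68.5 and 200.1 CPM). It was met by pcolce2b only through the negative gate (139.6 and 68.3 CPM). Among the 13, pcolcea, an enhancer of the C-proteinase, had 1378 ± 484 and 3827 ± 1505 CPM (log2 fold change 1.47, SE 0.38, adjusted p = 0.1728 by edgeR). The lysyl hydroxylase gene plod3 had 138 ± 30.8 and 249.8 ± 45.6 CPM (adjusted p = 0.2814 by edgeR), and the relative of p3h1, p3h3, had 68.5 ± 36.7 and 200.1 ± 51.1 CPM (adjusted p = 0.232 by edgeR). The isomerase genes fkbp7, fkbp9 and fkbp14 had log2 fold changes of 0.93, 0.67 and 1.00, and pcolceb had 0.53. The genes p4hb, pcolce2b and loxl4 had -0.16, -1.03 and -0.39.

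The copy serpinh1a had 163 ± 44.7 and 312 ± 42.8 CPM, without overlap (log2 fold change 0.93, SE 0.27, adjusted p = 0.2404 by edgeR). Per kilobase serpinh1b was 33.9, 23.0 and 36.8 times serpinh1a in the negative gate and 22.0, 15.5 and 18.7 times in the positive gate, so serpinh1b was the main copy in every library and its excess was smaller in each Geminin-positive one. For p4ha1b over p4ha1a, the latter named outside the rule as the paralog, the ratio was 21.7 ± 5.17 and 19.4 ± 11.1 and overlapped. How reads shared by near-identical copies were counted is not given in the sources used here.

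Genes of procollagen export and its control, a list of 18 of which 15 were matched and passed the filter, had a median log2 fold change of 0.86. None passed after adjustment with edgeR, and 6 had an unadjusted p under 0.05, all higher, beside 3.64% of all genes. With DESeq2 3 passed and with limma-voom 1, all higher, beside 1.51% and 0.327% of all genes. The smallest adjusted p was that of creb3l1, an activator of collagen and secretory genes, with 280, 269 and 272 CPM against 549, 665 and 633 CPM (adjusted p = 0.05834 by edgeR); it was named after its values were seen. Among 10 fibrillar collagen genes past the filter, 3 passed as higher with edgeR, beside 0.124% of all genes. They were col1a1a, col1a1b and col5a1, a chain of type V collagen (log2 fold change 1.75, SE 0.26, adjusted p = 0.0321 by edgeR). Higher without overlap were 5, beside 8.09% of all genes. These include col1a2 and col5a2b, also of type V and named after its values were seen (log2 fold change 1.14, SE 0.23, adjusted p = 0.08466 by edgeR). The call of col5a1 was lost without Geminin-negative replicate 2 or 3 or Geminin-positive replicate 2 or 3, with adjusted p up to 0.1385 by edgeR. Another type V chain gene, col5a2a, named after its values were seen, had 569, 349 and 338 CPM against 154, 119.9 and 77.9 CPM, lower without overlap (log2 fold change -1.84, SE 0.34, adjusted p = 0.06293 by edgeR). It passed as lower with DESeq2 (adjusted p = 1.993e-05) and limma-voom (adjusted p = 0.01312).

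**Figure D4:**
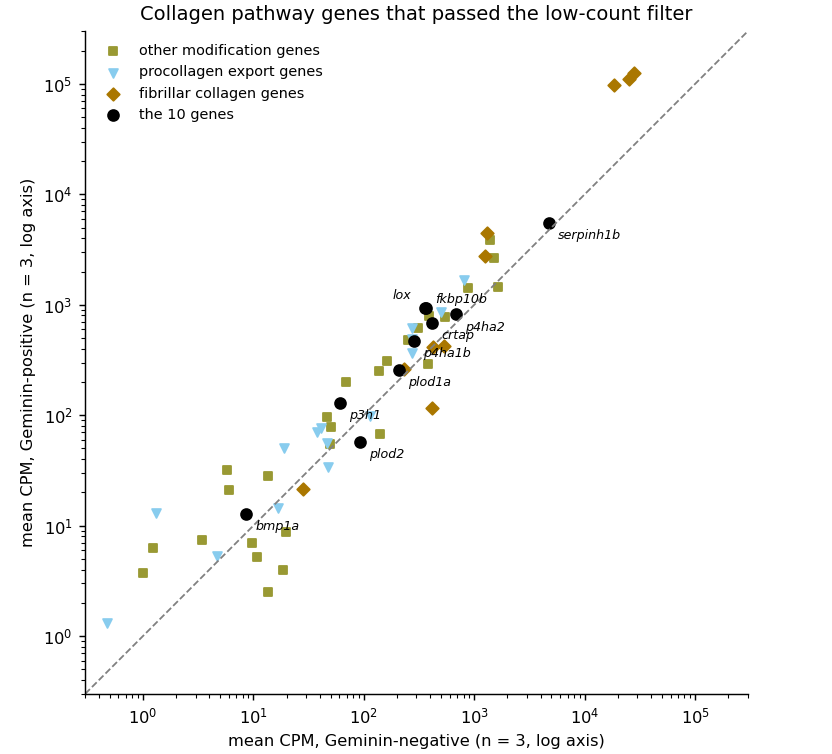
Mean CPM in the Geminin-positive against the Geminin-negative libraries (n = 3 each, log axes) for the 10 genes (black) and the 3 other lists of the collagen pathway; the dashed line marks equal levels. The 3 type I collagen genes are the most abundant and lie above the line, 9 of the 10 genes lie above it, and plod2 lies below it.

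The libraries of a group were not alike for these genes. Of the 10, 8 had their lowest Geminin-negative level in replicate 1 and 5 had their lowest Geminin-positive level in replicate 1; all 5 of these were among the 8. They were p4ha1b, plod2, crtap, fkbp10b and lox. The shares of all genes that were lowest in replicate 1 were not computed, so these counts are not shown to be particular to the 10. Genes with any read numbered 17875, 13829 and 11977 in Geminin-negative replicates 1 to 3. In the positive ones they numbered 15840, 12284 and 13035. The mean centred log2 level of the 10 was -0.74, -0.16 and -0.03 in the 3 negative libraries and 0.08, 0.45 and 0.40 in the 3 positive ones. Without Geminin-negative replicate 1 the median log2 fold change of the 10 was 0.51, and without Geminin-positive replicate 1 it was 0.58. The same Geminin-negative replicate 1 had the lowest osteoblast marker sum, 39398 CPM, of which col10a1a made up 31136 CPM. Other osteoblast markers went both ways there. The levels of col10a1b (2708 CPM), phex (428 CPM), panx3 (365 CPM) and ifitm5 (2122 CPM) were the lowest of all 6 libraries. That of spp1, 640 CPM, was the lowest of the negative gate. By contrast, sp7 at 138 CPM, runx2b at 111 CPM and alpl at 11.7 CPM were the highest of the negative gate. The entpd5a level, 1726 CPM, was the highest of all 6 libraries. The part of this library's makeup in the result was not tested.

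Fibroblasts of the dermis also make fibrillar collagen, lox and its partners. The 10 fibroblast markers summed to 1912 to 2335 CPM in the negative gate and 3289 to 7289 CPM in the positive gate, a difference carried by lum, which had 1166 and 4939 CPM. Without lum the sum was 703 to 1501 and 667 to 699 CPM, lower in the positive gate without overlap but by a narrow gap. Of the 9 fibroblast markers tested, 3 had a positive log2 fold change (lum, pdgfra and col6a2), and 6 a negative one. None passed with edgeR after adjustment. At an unadjusted p under 0.05 there were 3, of which 1 was higher and 2 lower, beside 3.64% and 5.76% of all genes. With DESeq2 1 passed and with limma-voom 1, both higher, beside 1.51% and 0.327% of all genes. The marker tnxba was at 0 in all 6 libraries. The part of fibroblasts, leukocytes and osteoclasts in the levels of the 10 genes was not tested.

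The 5 genes whose log2 profile over the 6 libraries was nearest to the mean profile of the 10, by root mean square difference among 6027 candidates, were tmem263, tmem59l, tmed2, ndufa4a and pgm3. The difference was 0.0769 for tmem263 and 0.0974 for pgm3, in log2 units. The level of tmem263 was 224 CPM in the negative gate and 335.5 CPM in the positive gate, and its log2 fold change was 0.59 (SE 0.27, adjusted p = 0.5841 by edgeR).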

How the data were processed

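Per the labels, 6 libraries were made from sorted osteoblasts, 3 per gate. The deposited values are raw read counts per gene, and the tables also give exon length. Per the submitters' processing notes, Trim Galore 0.4.1, TopHat2 2.1.1, featureCounts 1.6.1 and danRer10 were used. No annotation release, strand setting or multi-mapping setting is given in the sources used here. Symbols came from an Ensembl table and RefSeq names of assembly GRCz12tu, and no coordinate came from that assembly.

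The main test was edgeR 4.0.16 (R 4.3.3), with filterByExpr, TMM and a robust quasi-likelihood fit, adjusted by Benjamini-Hochberg over all 12855 genes tested at a threshold of 0.05. SE is the absolute log2 fold change over the root of F, and 95% intervals use the fit's degrees of freedom. DESeq2 1.42.0, limma-voom (limma 3.58.1), other scaling, other filters, left-out libraries and a replicate block were alternatives. The fit scaled by type I collagen was added after the data were seen. Ratios per kilobase divide CPM by exon length. They were taken for chosen pairs of genes, all of which are given. The share of other gene pairs whose ratio does not overlap was not computed. P-values weigh the difference between the gates against the spread between these libraries, estimated with information shared across genes. Each library is a pool of 3 to 5 fish, so the spread between single fish was not measured.

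On simulated data for this comparison (11246 genes), 28% of genes changed 4-fold and 68% of those changed 8-fold were recovered. The 200 changed genes were drawn from those averaging at least 10 CPM. Every library pair differed beyond sampling noise (chi-square over degrees of freedom at least 94.9).

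The members and lists were chosen with earlier results of these data known. The text names the 10 genes, genes of 3 related lists that passed the test, other modification genes averaging 100 CPM or more, the type I collagen genes, gmnn and sp7 and the 5 nearest profiles. Some of the 13 are given by fold change only. Exceptions are marked.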

Additional observations from a re-analysis of the deposited data

How the results depend on the processing

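The number of the 10 genes past the edgeR threshold, 0, was 3 with DESeq2, 2 with no low-count filter, 2 with the replicate block and 0 in the other alternatives, which include leaving out each library (0 to 0). The genes called were fkbp10b and lox in all 3 of these, and p3h1 with DESeq2. Over all genes tested, those called higher were 194 of 12855 with DESeq2, 156 of 21637 with no filter and 47 of 12855 with the block. Of the other modification genes, 0 passed, against 5 with DESeq2, 1 with limma-voom, 3 with no filter and 3 with the replicate block, and 0 to 0 without each library. All genes called numbered 78, against 185 with library size only, 626 with DESeq2, 557 with no filter, 144 with the stricter filter, 134 with the replicate block and 22 to 96 without each library in turn (32, 22 and 25 without Geminin-negative replicates 1 to 3, and 96, 34 and 40 without the Geminin-positive ones). The split was 16 higher and 62 lower, 12 and 173 with library size only, 194 and 432 with DESeq2, 156 and 401 with no filter, 42 and 70 with limma-voom, 37 and 107 with the stricter filter, and 47 and 87 with the block. The cause of these shifts was not tested. The deviations of same-numbered libraries from their group means correlated at 0.18, 0.06 and 0.04, and those of differently numbered ones at -0.12 to 0.05. Only Geminin-negative replicate 3 correlated better with another number, at 0.05 with Geminin-positive replicate 2. These values lean towards shared numbers, but the labels name no pairing, so the main fit did not pair samples. Whether same-numbered libraries belong together is not known, and the replicate block gave the 2 calls stated above. Scaling by library size alone turned 3 of the 10: p4ha2 to -0.20, plod1a to -0.15 and serpinh1b to -0.24, with the median gene at -0.47. The other 7 kept their direction in every alternative that gave a value; bmp1a was removed by the stricter filter. The log2 fold change of p4hb, -0.16, was -0.66 with library size only and -0.48 without Geminin-negative replicate 1, and turned to 0.25 without Geminin-negative replicate 3 and to 0.04 without Geminin-positive replicate 1. The calls of col1a1a, col1a1b and col5a1 were lost without several single libraries, with adjusted p up to 0.143, 0.1133 and 0.1385 by edgeR, and that of col5a1 also with library size only (adjusted p = 0.07456 by edgeR). The share of counts of the 10 genes averaged 0.848% in the negative gate and 0.834% in the positive gate, and 0.722% and 0.985% with TMM-scaled library sizes, where the groups no longer overlapped. With 3 libraries a group, the fold changes of the 10, at most 2.63, lay below the 4-fold change of which 28% was recovered in the simulation. That share is over genes averaging at least 10 CPM. It was not computed for genes with the levels and spread of the 10, so it does not give their chance of a call.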
